A study of Mus musculus with 9 samples.

Results

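Metallothioneins and zinc transporters were described here through 7 genes chosen by name: the metallothioneins Mt1 and Mt2, the zinc-sensing transcription factor Mtf1, the zinc exporters Slc30a1 and Slc30a2, and the zinc importers Slc39a1 and Slc39a14. All 7 were found among the 55487 genes of the count table. The data were gastrocnemius RNA-seq of wild-type C57BL/6 mice, labelled male, in 4 Control, 2 Unloading and 3 Reloading libraries. Control mice moved freely in their cages, Unloading mice had their hindlimbs suspended for 10 days, and Reloading mice were given 1 day of cage activity after such a suspension. No ages, batches or pooling of animals were given in the labels, and nothing in them said that replicates were separate animals, so p-values measure only the spread between these libraries.

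Zinc inside a cell is mostly held by proteins. Metallothioneins are small, cysteine-rich proteins that bind zinc and copper and scavenge oxidants, Slc30a (ZnT) proteins carry zinc out of the cytosol, and Slc39a (ZIP) proteins carry it in. Free zinc activates Mtf1, which binds metal response elements in the promoters of Mt1, Mt2 and Slc30a1, and metallothionein genes are also known targets of glucocorticoids and of interleukin-6 acting through STAT3. In skeletal muscle, metallothioneins are known as genes of atrophy and of stress.

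Mt1 and Mt2 lie next to each other on chromosome 8, both on the plus strand (build GRCm38), Mt2 at chr8:94172664-94173568 and Mt1 at chr8:94179082-94180327, with 5513 bases between them. Their promoter windows, and that of Slc30a2, are printed because Mt1 and Mt2 rose in Reloading while Slc30a2 fell. They are RefSeq promoters of GRCm38.p6 that run from 250 bases before to 50 bases after the start, on the gene's strand, and 6 of the 7 members had one, Slc39a14 being the exception. Capitals mark the metal response element core, searched as TGCACNC or TGCGCNC on both strands.
Mt1, chr8:94178839-94179138, plus strand: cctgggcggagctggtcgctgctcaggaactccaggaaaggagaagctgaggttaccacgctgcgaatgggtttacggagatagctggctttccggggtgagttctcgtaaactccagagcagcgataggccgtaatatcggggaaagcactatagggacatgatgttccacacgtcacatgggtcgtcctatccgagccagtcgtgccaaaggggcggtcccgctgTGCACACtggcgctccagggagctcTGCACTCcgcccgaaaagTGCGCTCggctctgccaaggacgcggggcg
Mt2, chr8:94172368-94172667, plus strand: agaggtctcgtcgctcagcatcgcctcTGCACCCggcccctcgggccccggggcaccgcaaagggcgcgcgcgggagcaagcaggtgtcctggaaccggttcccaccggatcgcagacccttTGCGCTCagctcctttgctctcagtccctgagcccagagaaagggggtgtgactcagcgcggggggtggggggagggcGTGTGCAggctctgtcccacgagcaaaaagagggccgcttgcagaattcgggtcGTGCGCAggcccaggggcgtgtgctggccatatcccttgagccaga
Slc30a2, chr4:134343216-134343515, plus strand: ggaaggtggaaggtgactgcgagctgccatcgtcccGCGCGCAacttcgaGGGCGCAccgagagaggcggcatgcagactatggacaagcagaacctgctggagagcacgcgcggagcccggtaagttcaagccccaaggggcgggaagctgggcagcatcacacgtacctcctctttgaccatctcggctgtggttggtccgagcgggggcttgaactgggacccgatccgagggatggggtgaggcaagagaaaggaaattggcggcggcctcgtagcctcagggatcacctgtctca
The Mt2 window held 4 matches, the Mt1 window 3, and the Slc30a1 and Slc30a2 windows 2 each, while Mtf1 and Slc39a1 had 0. Of all 32851 windows in the table, 25.7% held at least 1 match, 7.11% at least 2, 1.97% at least 3 and 0.517% at least 4. In bases from the RefSeq start, the matches of Mt1 began at -23, 2 and 20, all on the gene's strand. Those of Mt2 began at -223 and -128 on the gene's strand and at -50 and 4 on the opposite strand, and those of Slc30a2 at -214 and -200, both opposite. In the count table's annotation Slc30a2 starts at chr4:134343181, before its window, so its matches lie inside the annotated gene and not upstream of it. The Mtf1 window, from chr4:124802299, likewise lies inside its gene, which starts at chr4:124802104. An antioxidant response element, TGACNNNGC, occurred 1 time in each of the Mt2, Slc30a1 and Slc39a1 windows, against 12.4% of all windows with at least 1. The STAT site TTCNNNGAA was in none of the 6 windows, and in 8.30% of all windows. Mt1 has 3 annotated transcripts, but only the window of 1 RefSeq start was searched for each gene. Elements near any other start would be missed, so a window without a match does not show that the gene lacks the element. These matches describe letters in the windows, and binding was not measured.

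Depth was 9252443 to 19612101 read pairs assigned to genes per library. Levels are given as counts per 1000000 (CPM) with libraries scaled by edgeR's TMM (trimmed mean of M-values), so that 1 read pair was worth 0.0546 to 0.113 CPM. Xist had 0 to 5 read pairs and the Y-linked Ddx3y 1013 to 1993 in every library, which is what the male label says, although the study describes female mice for the unloading procedure. The share of read pairs from mitochondrial genes was 9.36% to 10.6% in Control and Unloading and 6.49% to 6.75% in Reloading, and the TMM factors were 0.928 to 0.960 and 1.11 to 1.13. Skeletal muscle markers were abundant throughout, at 131491 to 197717 CPM summed over 11 genes. Control 2 and Reloading 1 stood apart with 322 and 147 CPM summed over 12 skin keratin and cornification genes, against 5.35 to 8.68 in the other 7 libraries. Calls of zinc genes, markers and other listed genes that changed in Reloading against Unloading without these 2 libraries are given with the gene.

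Of the 7 members, 3 were higher in Reloading than in Unloading and 1 was lower (adjusted p under 0.05, edgeR's quasi-likelihood test), where 37.5% of the 14851 genes tested were called, 18.5% higher and 19.0% lower. The members that rose were Mt1, Mt2 and Slc39a14, and the member that fell was Slc30a2. Against Control, these same 4 members were called in the same directions in Reloading, where 43.5% of all genes tested were called, 22.1% higher and 21.3% lower. Both comparisons share the Reloading libraries. Between Unloading and Control 0 of 7 were called, where 9.90% of all genes were (4.40% higher and 5.50% lower), and 0 of 7 had an unadjusted p under 0.05. DESeq2 also called 0 of 7 there. CPM of the groups did not overlap for 4 of 7 members in Reloading against Unloading, where 60.0% of genes did not, for 1 of 7 in Unloading against Control, where 33.0% did not, and for 5 of 7 in Reloading against Control, where 46.9% did not. Nothing particular to the 7 members is read from these counts. The scaling set the direction of many calls over all genes, since 49.3% of the calls against Unloading and 50.9% of those against Control were higher in Reloading with TMM, and 82.8% and 80.2% with library totals alone, under which 6 of 7 members were called in each. All 7 members passed the filter on low counts. Mt2 passed it only through libraries where it was high, because 0 of 4 Control, 1 of 2 Unloading and 3 of 3 Reloading libraries were above its level of 0.784 CPM, and so its count among the called members carries no weight.

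**Figure D1:**
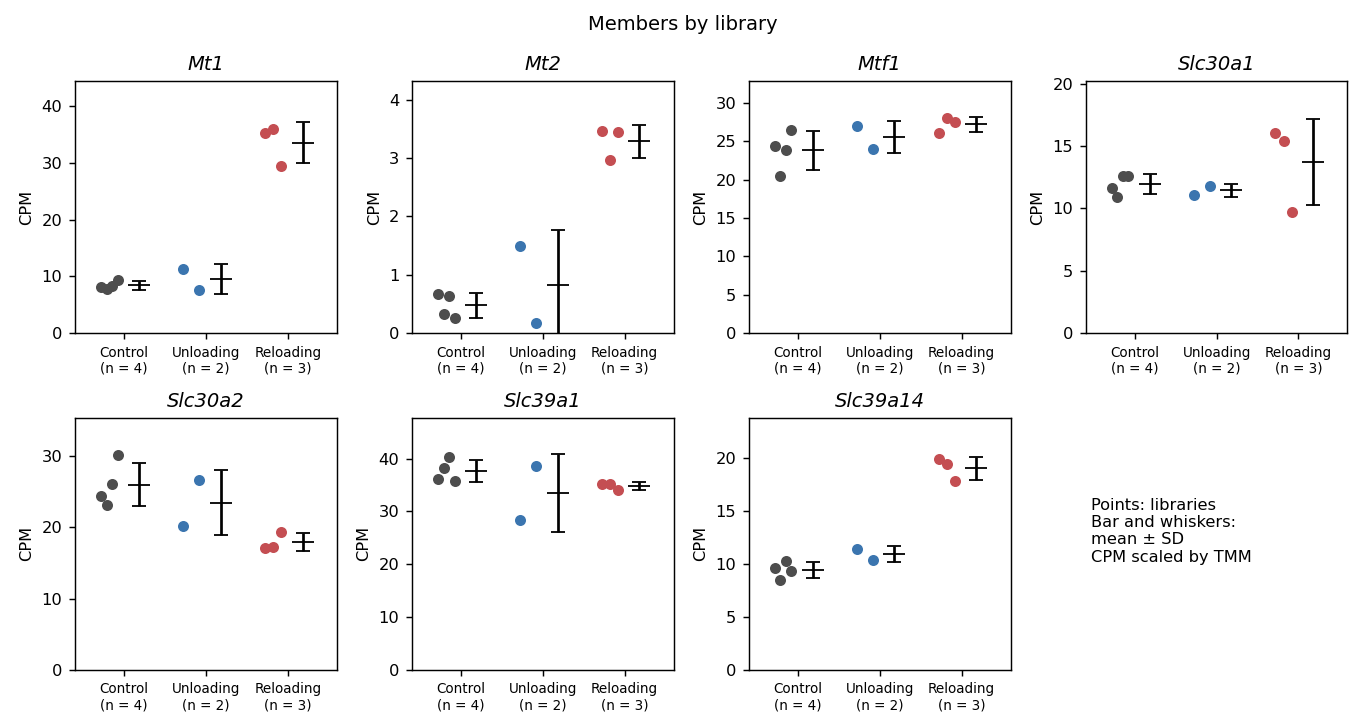
CPM of the 7 members in each library, with the mean ± SD of each group beside the points (4 Control, 2 Unloading and 3 Reloading libraries, each axis from 0). Mt1 lay between 29.5 and 35.9 CPM in Reloading and between 7.59 and 11.4 CPM elsewhere, Slc39a14 between 17.8 and 19.9 against 8.54 to 11.5, and the lower whisker of Mt2 in Unloading runs below 0.

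Mt1, a metallothionein made in most tissues, had 8.12, 7.71, 8.36 and 9.44 CPM in Control 1 to 4. It had 11.4 and 7.59 CPM in Unloading 1 and 2, and 35.3, 35.9 and 29.5 CPM in Reloading 1 to 3. The Control and Unloading values interleaved, and the lowest Reloading library stood far above all of them. Against Unloading, Mt1 rose 3.58-fold in Reloading, which is 1.84 ± 0.16 (SE) on the log2 scale (adjusted p = 7.30e-07, edgeR). Against Control it rose 3.98-fold, by 1.99 ± 0.13 (adjusted p = 2.34e-08, edgeR). Its rank by p among the 14851 genes was 113 in the first of these and 81 in the second. Unloading against Control gave 0.15 ± 0.16 on the log2 scale, with a 95% interval of -0.19 to 0.49 (adjusted p = 0.586, edgeR). Without Control 2 and Reloading 1 the log2 fold change against Unloading was 1.80.

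Mt2 encodes the second ubiquitous metallothionein, but it was counted from very few reads. Control 1 to 4 held 6, 4, 9 and 3 read pairs, Unloading 1 and 2 held 20 and 3, and Reloading 1 to 3 held 43, 41 and 52. As levels these were 0.677, 0.332, 0.643 and 0.257 CPM in Control, 1.5 and 0.164 in Unloading, and 3.47, 2.97 and 3.44 in Reloading. All 3 Reloading libraries were above all others, and the pair of Unloading libraries lay on both sides of the Control range. Mt2 rose by 2.11 ± 0.49 on the log2 scale against Unloading (adjusted p = 0.00335, edgeR) and 2.78 ± 0.45 against Control (adjusted p = 0.000143, edgeR). Mt2 passed the filter on low counts only through libraries where it was high (0 of 4 Control, 1 of 2 Unloading and 3 of 3 Reloading). Its p-values in comparisons with Reloading therefore carry no weight. The size of the change against Unloading rested on which Unloading library was used, with 4.25 without Unloading 1 and 1.12 without Unloading 2. Unloading against Control gave 0.66 with a 95% interval of -0.67 to 1.99 (adjusted p = 0.546, edgeR), and without Unloading 2 the remaining library gave 1.64 (adjusted p = 0.0367).

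**Figure D2:**
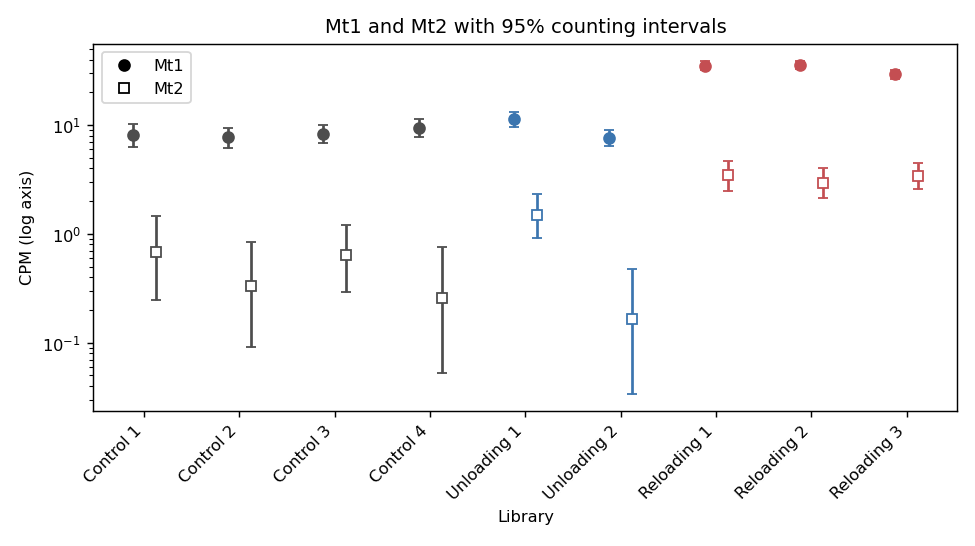
CPM of Mt1 (filled circles) and Mt2 (open squares) in each library on a log axis, with exact 95% Poisson intervals that cover counting error only. Mt2 rested on 3 to 52 read pairs per library, so its intervals in Control and Unloading are wide. The Reloading values of 2.97 to 3.47 CPM stand above the Control values. The Mt2 interval of Unloading 1, 0.914 to 2.31 CPM, overlaps that of Reloading 2, 2.13 to 4.02 CPM.

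The level of Mt2 is open to a limit of the counting. Of its 588 exon bases, 432 (73.5%) are also covered by exon bases of Gm45774, an antisense gene on the minus strand. Read pairs were counted without strand, the counting command in the file header has no option that lets a pair count for more than 1 gene, and by default a pair that touches both genes is not assigned. How many Mt2 pairs were lost in this way was not measured. Gm45774 itself received 0 to 8 read pairs per library, with 0 to 2 in Control, 6 and 0 in Unloading 1 and 2, and 6 to 8 in Reloading. Like Mt2, it had more in Unloading 1 than in Unloading 2, and more in Reloading than in Control. Whether any of these pairs came from Mt2 was not tested. For Mt1 no exon base was shared with another gene. Fold changes compare Mt2 with itself and use the same exon bases in every library, but whether the lost share was equal between libraries was not measured. A level of Mt2 beside that of Mt1 lacks even this like-for-like basis.

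**Figure D3:**
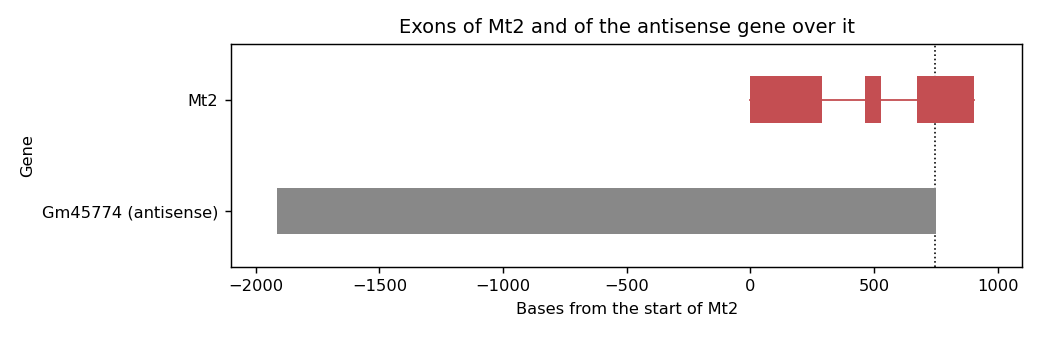
Exons of Mt2 and of the antisense gene Gm45774 in bases from the start of Mt2, to scale. The antisense exon reaches 748 bases past the start of Mt2 (dotted line) and so covers the first and second exon and part of the third, and the stretch to the right of the line is the part of Mt2 that no other gene covers.

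Within a library, the ratio of Mt2 to Mt1 needs no scaling factor. There were 0.0273 to 0.0833 read pairs of Mt2 per pair of Mt1 in Control, 0.132 and 0.0216 in Unloading 1 and 2, and 0.0825 to 0.117 in Reloading. The Reloading values were close together, and the pair of Unloading values spanned all the rest. On the log2 scale and per exon length the ratio had a mean of -3.17 with an SD of 0.76 in the 4 Control libraries, of -3.15 with 1.84 in the 2 Unloading libraries, and of -2.27 with 0.25 in the 3 Reloading libraries. Reloading exceeded Control by 0.91, where the exact permutation test gave a two-sided p of 0.114 (adjusted over 3 comparisons 0.343, smallest possible p 0.0571). Reloading exceeded Unloading by 0.88 (exact permutation p = 0.8) and Unloading exceeded Control by 0.03 (exact permutation p = 1), in designs whose smallest possible p is 0.2 and 0.133. With so few libraries none of the 3 tests could reach 0.05, so they say nothing on whether Mt1 and Mt2 changed alike.

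Mtf1 encodes the transcription factor that senses zinc. Its levels were 24.4, 20.5, 23.9 and 26.5 CPM in Control, 27.0 and 24.0 in Unloading, and 26.1, 28.0 and 27.5 in Reloading. Each group overlapped each other group. In Reloading its log2 fold change was 0.09 against Unloading (95% interval -0.14 to 0.32, adjusted p = 0.519, edgeR) and 0.19 ± 0.09 against Control (adjusted p = 0.103, edgeR). Scaling by library totals alone moved the median of all genes in these comparisons to 0.27 and 0.25 on the log2 scale and put Mtf1 past the threshold, at 0.34 (adjusted p = 0.0196) and 0.43 (adjusted p = 0.00120). Of its exon bases, 8.09% are shared with 1110065P20Rik on the opposite strand.

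Slc30a1 encodes ZnT1, the exporter of zinc across the plasma membrane and a classic Mtf1 target. It had 11.6, 10.9, 12.6 and 12.6 CPM in Control and 11.1 and 11.8 in Unloading. The Reloading libraries disagreed, with 16.0 and 15.4 CPM in Reloading 1 and 2 and 9.74 CPM in Reloading 3, the lowest value of all 9. Its log2 fold change was 0.25 ± 0.17 against Unloading (95% interval -0.11 to 0.62, adjusted p = 0.266, edgeR) and 0.19 ± 0.15 against Control (adjusted p = 0.308, edgeR). Without Reloading 3 it passed in both comparisons, at 0.46 (adjusted p = 0.0117) and 0.40 (adjusted p = 0.0104), and it also did with library totals, at 0.50 (adjusted p = 0.0319) and 0.43 (adjusted p = 0.0247).

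Slc30a2 encodes ZnT2, which moves zinc into vesicles and is best known from secretory epithelia. Its levels were 24.5, 23.1, 26.2 and 30.1 CPM in Control, 20.2 and 26.7 in Unloading, and 17.1, 17.3 and 19.3 in Reloading. Every Reloading library lay below every other, although Unloading 1 was close to Reloading 3. The level was 0.690 times that of Control, a log2 fold change of -0.54 ± 0.11 (adjusted p = 0.00153, edgeR), and past the threshold in each of the 18 alternative settings tried, with -0.30 (adjusted p = 0.0360) under library totals. Against Unloading the log2 fold change was -0.39 ± 0.13 (adjusted p = 0.0306, edgeR), and it passed in 13 of 18. It did not pass with library totals (-0.15, adjusted p = 0.378), without Unloading 2 (-0.18, adjusted p = 0.432), without Reloading 1 (adjusted p = 0.0800) or Reloading 2 (adjusted p = 0.0854), or without both Control 2 and Reloading 1 (adjusted p = 0.0676).

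Slc39a1 encodes ZIP1, a widely expressed importer at the plasma membrane. It had 36.2, 38.2, 40.4 and 35.7 CPM in Control, 28.3 and 38.6 in Unloading, and 35.1, 35.2 and 34.0 in Reloading. Unloading 1 was the lowest and Unloading 2 lay inside the Control range. Reloading against Unloading gave a log2 fold change of 0.05 (95% interval -0.19 to 0.28, adjusted p = 0.762, edgeR) and Reloading against Control gave -0.12 (95% interval -0.32 to 0.09, adjusted p = 0.342, edgeR). Its direction is not fixed, since it turned to 0.12 against Control with library totals and to -0.16 against Unloading without Unloading 1, while library totals gave 0.30 against Unloading (adjusted p = 0.0433). Of the distinct 50-base stretches of its transcript, 21.8% also occur in the pseudogene Slc39a1-ps, which was counted with 2 to 5 read pairs per library, so reads from these stretches could be lost or misplaced.

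Slc39a14 encodes ZIP14, an importer of zinc, iron and manganese that is known to be induced by interleukin-6 in the liver. Its gene is on the minus strand at chr14:70303469-70351425. It had 9.59, 8.54, 10.3 and 9.35 CPM in Control, 11.5 and 10.4 in Unloading, and 19.9, 19.5 and 17.8 in Reloading. The Reloading libraries were clear of all others, and both Unloading libraries were just above the highest Control library. In Reloading, Slc39a14 stood 1.75-fold over Unloading, by 0.81 ± 0.12 on the log2 scale (adjusted p = 9.26e-05, edgeR), and 2.01-fold over Control, by 1.01 ± 0.10 (adjusted p = 1.53e-06, edgeR). The step from Control to Unloading was 0.20 on the log2 scale with a 95% interval of -0.04 to 0.45, and did not pass (adjusted p = 0.291, edgeR).

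Compared per kilobase of exon, the order of the members changed with the group. In Control, Slc39a1 led at 15.9 ± 0.902 CPM per kilobase (SD, n = 4), followed by Slc30a2 at 7.29 ± 0.850 and Mt1 at 6.75 ± 0.592, whose ranges overlapped. In Reloading, Mt1 led at 26.9 ± 2.86 CPM per kilobase (SD, n = 3), ahead of Slc39a1 at 14.7 ± 0.294 and Slc30a2 at 5.02 ± 0.350. Slc39a14, the importer that rose, had among the lowest levels per kilobase, at 0.895 ± 0.0684 in Control and 1.81 ± 0.104 in Reloading. The exon length is that of all annotated exons together, 1246 bases for Mt1 where its transcripts have 549 to 1085, and 10550 for Slc39a14 where its coding transcripts have at most 4926, so the levels of genes with many alternative exons are understated. Summed per kilobase, the 10 Slc30a genes had 27.3 ± 1.56 in Control, 26.1 ± 0.763 in Unloading and 23.2 ± 0.821 in Reloading. The 14 Slc39a genes had 34.3 ± 1.65, 32.0 ± 4.14 and 38.1 ± 1.58 in the same order.

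The rest of the family was read from a list of 22 other zinc genes, of which 14 had enough counts to test. In Reloading against Unloading, 7 of the 14 rose and 1 fell, and in Reloading against Control 9 rose and 1 fell, where 18.5% and 22.1% of all genes tested were higher and 19.0% and 21.3% lower. Both counts of rises include Mt3, which passed the filter mainly through Reloading libraries, so its call there carries no weight. The medians were 0.38 and 0.40 on the log2 scale, and those of all genes tested 0.03 and 0.01. With library totals alone 11 and 12 of the 14 were called, 11 higher in each. Between Unloading and Control 1 rose and 0 fell, where 9.90% of all genes were called, and the median was 0.01 (2 of 14 had an unadjusted p under 0.05, and DESeq2 called 1). Those with too few counts were Mt4, Slc30a3, Slc30a8, Slc30a10, Slc39a4, Slc39a5, Slc39a8 and Slc39a12. DESeq2 called 4 of the 14 in Reloading against Unloading and 6 in Reloading against Control, and without both Control 2 and Reloading 1 the first count was 5.

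**Figure D4:**
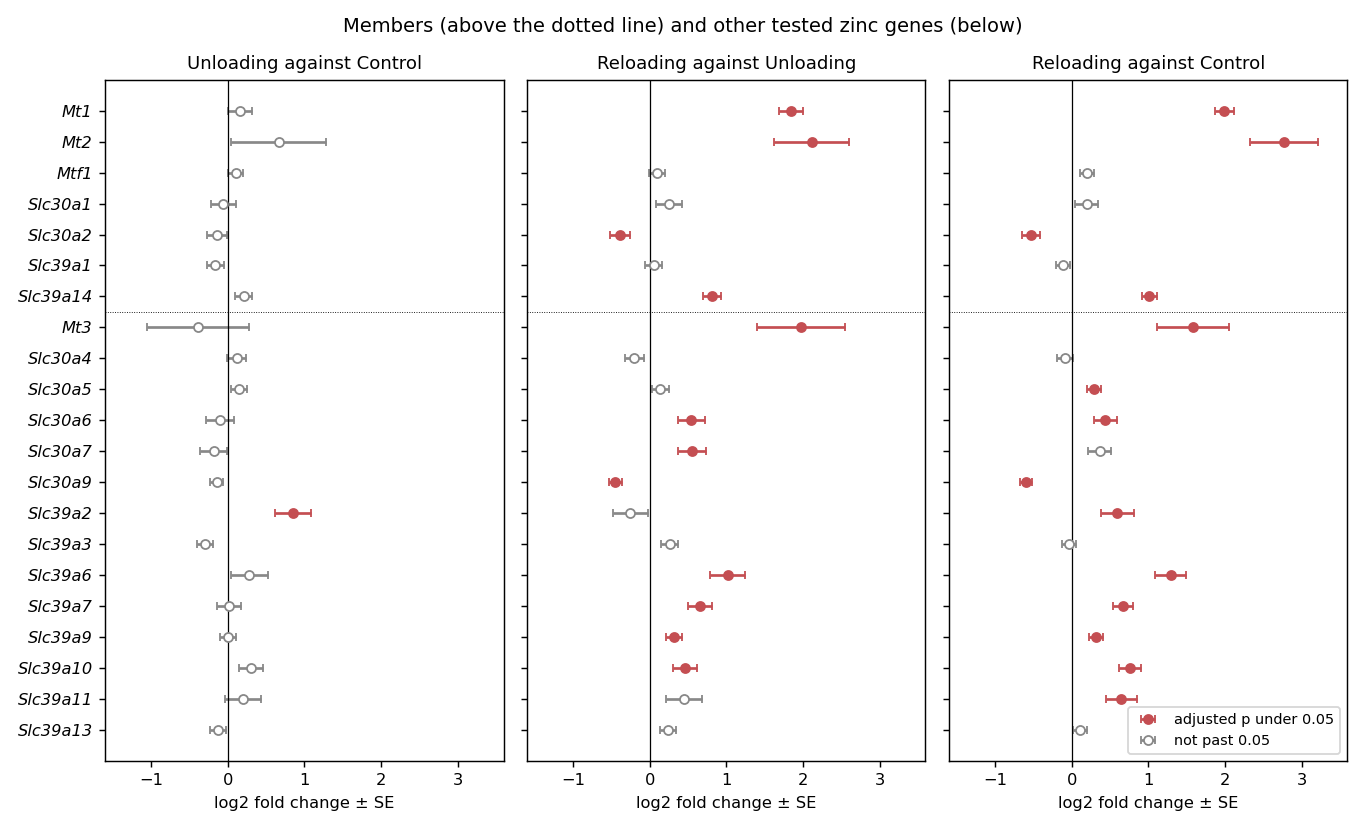
Log2 fold change ± SE of the 7 members (above the dotted line) and the 14 other tested zinc genes in the 3 comparisons, filled where the adjusted p was under 0.05 (edgeR). In the 2 comparisons that hold Reloading, Mt1, Mt2 and Mt3 lie farthest to the right of the metallothioneins and transporters shown, and Slc30a2 and Slc30a9 are the filled points left of 0.

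Among the importers, Slc39a6 (ZIP6, a plasma membrane importer) changed most. It had 2.03 to 2.23 CPM in the 4 Control libraries, 1.87 and 3.22 in Unloading, and 5.48, 6.15 and 4.24 in Reloading. All Reloading libraries were above all others. It rose by 1.01 ± 0.23 against Unloading (adjusted p = 0.00315, edgeR) and 1.29 ± 0.20 against Control on the log2 scale (adjusted p = 0.000120, edgeR). Slc39a10 (ZIP10), its closest relative, rose by 0.46 ± 0.16 and 0.76 ± 0.14 in the same comparisons. Slc39a7 (ZIP7), which releases zinc from the endoplasmic reticulum, rose by 0.65 ± 0.16 and 0.67 ± 0.13, and Slc39a9, found at the Golgi, by 0.31 ± 0.11 and 0.32 ± 0.09. Slc39a11 passed against Control only, at 0.65 ± 0.20, with 0.45 ± 0.23 against Unloading. Without both Control 2 and Reloading 1, the calls of Slc39a9 and Slc39a10 against Unloading and of Slc39a11 against Control were lost (adjusted p = 0.0810, 0.0811 and 0.147).

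Slc39a2 (ZIP2) was the zinc gene that was higher in Unloading than in Control. It had 1.24, 2.32, 2.64 and 2.49 CPM in Control, 4.19 and 3.88 in Unloading, and 2.82, 3.54 and 3.71 in Reloading. Unloading stood above both other groups, and Control 1 was lowest. Unloading exceeded Control by 0.85 ± 0.23 on the log2 scale (adjusted p = 0.0309, edgeR, and 0.0512 without both Control 2 and Reloading 1) and Reloading exceeded Control by 0.60 ± 0.22 (adjusted p = 0.0367, edgeR).

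Of the Slc30a genes, Slc30a9, which has been linked to zinc handling in mitochondria, fell. It had 101 to 115 CPM in Control, 94.7 and 96.9 in Unloading, and 64.5, 67.8 and 77.8 in Reloading. Reloading lay below all other libraries. Slc30a9 changed by -0.45 ± 0.09 on the log2 scale against Unloading (adjusted p = 0.00114, edgeR) and -0.59 ± 0.08 against Control (adjusted p = 2.05e-05, edgeR), and with library totals it was -0.20 (adjusted p = 0.0767) against Unloading. Slc30a6 and Slc30a7, which load zinc into the secretory pathway, rose against Unloading by 0.54 ± 0.18 and 0.55 ± 0.18. Against Control, Slc30a6 rose by 0.44 ± 0.15 (adjusted p = 0.0308, edgeR) and its partner Slc30a5 by 0.29 ± 0.09. Slc30a7 gave 0.36 ± 0.15 against Control (adjusted p = 0.0646, edgeR). Without both Control 2 and Reloading 1, the call of Slc30a7 against Unloading and that of Slc30a5 against Control were lost (adjusted p = 0.0552 and 0.108).

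Mt3, the metallothionein best known from brain, lies in the same cluster on chromosome 8. It had 2, 11, 6 and 6 read pairs in Control, 3 and 10 in Unloading, and 36, 15 and 15 in Reloading. Reloading 1, a library with skin transcripts, held the most, and Control 2, the other one, held the most of its group. The log2 fold change was 1.97 ± 0.58 against Unloading (adjusted p = 0.0146, edgeR) and 1.59 ± 0.47 against Control (adjusted p = 0.0135, edgeR). Without both libraries it was 1.33 (adjusted p = 0.0488) and 1.34 (adjusted p = 0.0378). Mt3 passed the filter only through 1 Control and 3 Reloading libraries, so its calls carry no weight in the counts of other zinc genes. Mt4, known from stratified epithelia, had 10 read pairs in Control 2, 3 in Reloading 1 and 0 or 1 elsewhere, which are the same libraries that held skin transcripts.

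**Figure D5:**
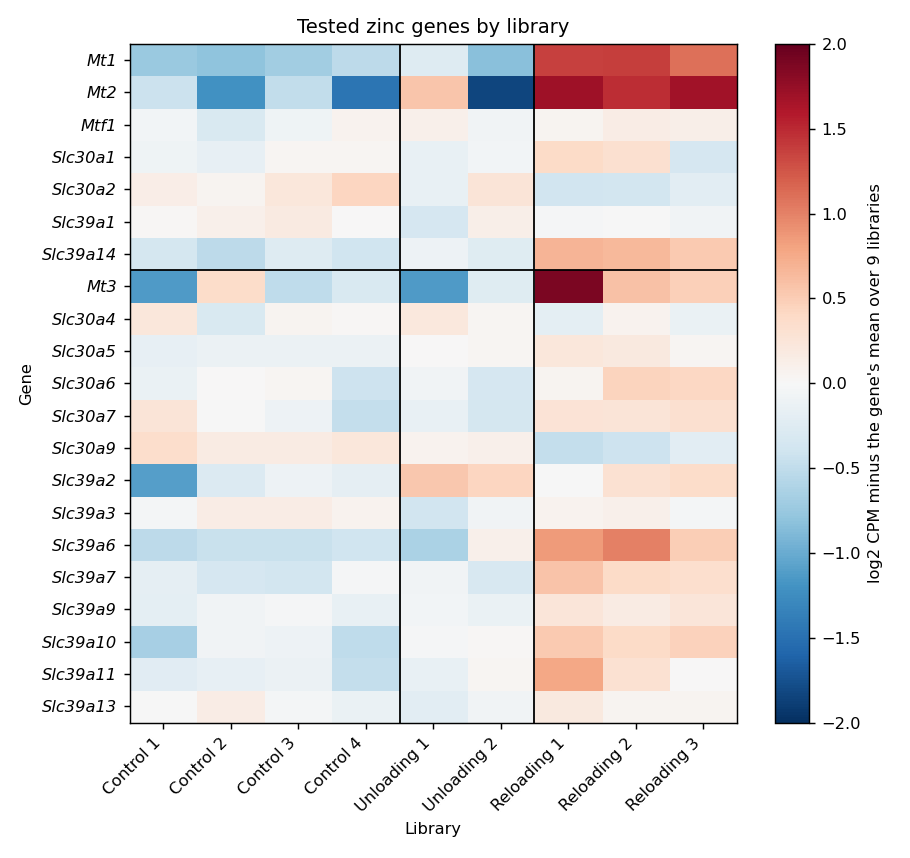
Log2 CPM of the 21 tested zinc genes in each library, centred on each gene's mean over the 9 libraries, with the colours ending at -2 and 2 and lines between groups. Mt1, Mt2 and Slc39a14 are high in the 3 Reloading libraries, Slc30a2 and Slc30a9 are low there, and Mt2 differs between Unloading 1 and Unloading 2.

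Other genes linked to Mtf1 were read from a list of 6. In Reloading against Unloading 3 rose and 1 fell, against Control 5 rose and 1 fell, and between Unloading and Control 1 rose, where 37.5%, 43.5% and 9.90% of all genes tested were called. Without both Control 2 and Reloading 1 these counts were 2 and 1, 4 and 1, and 0, with the calls of Slc39a10, Ndrg1 and Pgf lost in that order. The list was not split by whether Mtf1 raises or lowers a gene, so no direction of Mtf1 activity is read from these counts. Csrp1, a LIM-domain protein, rose by 1.14 ± 0.16 against Unloading, and Gclc, an enzyme of glutathione synthesis, by 0.58 ± 0.11. Slc39a10, which is also counted among the other zinc genes, rose by the value given above. Selenow, a muscle selenoprotein named after its value was seen, fell by 0.43 ± 0.08 on the log2 scale.

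Genes that respond to glucocorticoids and genes of IL-6 and STAT3 signalling gave a mixed picture. Of 11 glucocorticoid-responsive genes, 6 fell in Reloading against Unloading, where 19.0% of all genes did, and the other 5 did not pass. Fkbp5, a co-chaperone of the glucocorticoid receptor, fell by 1.75 ± 0.30, Klf9 by 0.96 ± 0.10 and Klf15 by 0.81 ± 0.17. Against Control 3 rose and 5 fell, where 22.1% of all genes rose and 21.3% fell. In Unloading against Control 4 rose, where 4.40% of all genes did, these being Fkbp5, Per1, Cebpd and Errfi1, named after their values were seen. Without both Control 2 and Reloading 1, 5 fell against Unloading, the call of Cebpd being lost (adjusted p = 0.0719, edgeR). Between Unloading and Control 2 then rose, the calls of Fkbp5 and Errfi1 there being lost. Of 10 genes of IL-6 and STAT3 signalling 9 were tested, Il6 itself having too few counts, and 4 rose and 3 fell against Unloading, where 18.5% of all genes rose and 19.0% fell. Socs3, the feedback inhibitor of the pathway, rose by 1.43 ± 0.31 and Bcl3 by 1.10 ± 0.40, while Il6ra, the receptor subunit, fell by 1.11 ± 0.18. Of the others, named after their values were seen, Stat3 rose by 1.02 ± 0.10 and Osmr by 0.67 ± 0.15, and Pim1 fell by 0.81 ± 0.18 and Lifr by 0.55 ± 0.10. Against Control 5 rose and 1 fell, where 22.1% of all genes rose and 21.3% fell. Between Unloading and Control 3 rose, where 4.40% of all genes did. Without both Control 2 and Reloading 1, Bcl3 lost its calls against Unloading (0.73, adjusted p = 0.178) and Control, and Socs3 gained one between Unloading and Control. Whether these genes had a part in the metallothionein values was not tested.

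Macrophage and endothelium markers mostly rose in Reloading against Unloading, as Mt1, Mt2 and Slc39a14 did. The lists of other cells fell, were mixed or were mostly not called. Of 14 macrophage markers, 12 rose in Reloading against Unloading and 2 did not pass. Of all genes tested there, 18.5% rose and 19.0% fell, shares that apply to each count against Unloading below. Summed, the macrophage markers had 96.1 to 116 CPM in Control, 98.7 and 99.8 in Unloading and 188 to 211 in Reloading. The largest rises were those of Cd68 at 3.93 ± 0.17, Cx3cr1 at 2.88 ± 0.61 and Fcgr1 at 1.57 ± 0.56. Of 7 endothelium markers 6 rose, from a summed 186 and 195 CPM in Unloading to 307 to 367 in Reloading, led by Kdr at 1.82 ± 0.18. Of 6 fibroblast markers 3 rose (Col1a1, Col3a1 and Col1a2) and 2 fell (Pdgfra and Dcn, named after their values were seen). Of 6 adipocyte markers Cidec alone was called, at 0.76 ± 0.27. Of 11 skeletal muscle markers 8 fell, from a summed 189130 and 194440 CPM to 131491 to 145359, led by Actn3 at -0.73 ± 0.09. Of 8 neutrophil markers 3 were tested and 0 called (edgeR, 0 at an unadjusted p under 0.05), and they summed to 0.357 to 6.88 CPM in all libraries. Of 12 skin markers 11 were tested and 0 called, with 0 at an unadjusted p under 0.05. Their median log2 fold change was 6.15, and their sum was high in Reloading 1 alone. It was 147 CPM there, 5.35 and 5.36 in Reloading 2 and 3, and 8.68 and 7.21 in Unloading 1 and 2. The lack of calls is therefore not read as equal levels. No marker was at 0 in all Reloading libraries, while 2 neutrophil and 4 skin markers were at 0 in both Unloading libraries. Without both Control 2 and Reloading 1, the calls of Fcgr1 (adjusted p = 0.0919) and Cidec (adjusted p = 0.0636) against Unloading were lost, and the fibroblast, endothelium and skeletal muscle counts against Unloading stayed as they were. The skin marker Sbsn, named after its value was seen, then fell against Unloading (-0.76, adjusted p = 0.0284, edgeR), with 2 skin markers tested. Control 2 and Reloading 1 held the highest fibroblast sums of their groups, 834 and 999 CPM. Against Control, 2 fibroblast markers rose with all libraries, where 22.1% of all genes tested did, and 4 rose without both. In bulk muscle, fewer cells of a type and less RNA per cell cannot be told apart, and the part of other cells in the zinc gene values was not tested.

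Finally, the genes most like each changed member were found by Pearson's r of log2 CPM over the 9 libraries, among 9867 or 9868 genes with a symbol and a mean log2 CPM of at least 2. These are descriptions, since the points share the 3 groups, their libraries and the depth. Closest to Mt1 were Egln3, an oxygen-sensing prolyl hydroxylase (r = 0.995), Klhl41, a sarcomere-associated kelch protein (r = 0.994), and Ankrd1, an ankyrin-repeat protein of stressed muscle (r = 0.994). Closest to Slc39a14 were Atosb, Ubxn4 and Myo18a (r = 0.993 each). Closest to Mt2 were Nelfa (r = 0.971), Ddx31 (r = 0.968) and Edrf1 (r = 0.967), and closest to Slc30a2 were Wbp1 (r = 0.974), Ccne2 (r = 0.960) and Igfbp5 (r = 0.958).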

How the data were processed

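RNA of 9 gastrocnemius samples was enriched for polyadenylated RNA and sequenced. The authors aligned reads with STAR 2.7.3a to GRCm38.p6 and used featureCounts 2.0.3 without strand to assign pairs to genes of the Ensembl 102 annotation. The submitters' processing notes name the tools, and the count table's header gives the counting command. The deposited table holds raw counts for 55487 genes, with each gene's summed exon length. The study's methods describe single reads, but the header counts pairs. The authors also deposited DESeq2 tables, with a mean normalized signal, fold changes and p-values for each comparison, and these were used here only for gene symbols. Of the 14851 tested genes, 14823 took a symbol from them, 23 from a reference table and 5 had none.

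Tests of these counts used glmQLFit and glmQLFTest of edgeR 4.0.16 in R 4.3.3, with all 9 libraries in 1 fit, the group as the only term, TMM scaling and filterByExpr (minimum count 10, minimum total 15), which kept 14851 of 34376 genes with a total above 0. Benjamini-Hochberg adjustment ran over all genes tested, with a threshold of 0.05. SEs were derived from the F statistic. Log2 CPM used a prior count of 2. The Mt2 to Mt1 ratio was compared by an exact permutation test. Coordinates are those of the count table, and shared exon bases were counted on it for either strand. Transcripts were from GENCODE M21. The fits were tested on simulated data first.

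The members and all gene lists were chosen with earlier results of these data known. Named were all 7 members in every library, other zinc genes called in any comparison or with too few counts, the 3 called genes with the largest change against Unloading in every other list, and the 3 genes most like each of Mt1, Mt2, Slc30a2 and Slc39a14. Exceptions are marked. All 119 listed symbols were matched. Alternatives were other scalings, no filter, DESeq2 1.42.0, a robust fit, the compared groups alone, replicate blocks, and leaving out libraries.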

Additional observations from a re-analysis of the deposited data

How the results depend on the processing

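Mt1 and Slc39a14 kept their direction and call in both comparisons with Reloading under all 18 alternatives, as did Slc30a2 against Control. Mt2 did so too, but it passed the filter only through libraries where it was high, so this carries no weight. With library totals Slc39a1 turned to 0.12 in Reloading against Control. Leaving out 1 library moved the called genes to 3934 to 5654 (members 3 to 5, ratio -0.42 to 2.19) in Reloading against Unloading, 121 to 1518 (members 0 to 2, ratio -1.28 to 1.33) in Unloading against Control, and 5267 to 6506 (members 4 to 5, ratio 0.59 to 1.13) in Reloading against Control. The Unloading against Control count was 1470, and fell to 121 without Unloading 1 and 949 without Control 3. In that comparison, leaving out 1 library moved the log2 fold changes of Mt1 to -0.14 to 0.43, Mt2 to -1.47 to 1.64, Slc30a2 to -0.36 to 0.040 and Slc39a1 to -0.41 to 0.039, with the turned signs without Unloading 1 and calls of Mt2 and Slc39a1 (adjusted p = 0.0315) without Unloading 2. A lone Unloading library is assumed to vary like the other groups. Slc39a1 was -0.16 to 0.29 in Reloading against Unloading, lowest without Unloading 1. Alternatives for the other zinc genes and the other lists were added after seeing the data. Against Unloading, 8 were called, 11 with library totals, 4 with DESeq2, 5 with the title-number block, 5 without both Control 2 and Reloading 1 and 3 to 8 leaving out 1 library (3 without Unloading 1, 4 without Unloading 2 or Reloading 2, 5 without Reloading 1 or Reloading 3). Reloading against Control gave 10, 12 with library totals, 6 with DESeq2 and 7 to 10 leaving out 1, and Unloading against Control 1, 0 without both libraries and 0 to 1 leaving out 1 (0 without Unloading 1). The cause of these changes was not tested.

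The numbers in titles and descriptions differ, no source says what they mark, and neither set had every same-number pair over a correlation of 0.1, so neither was used to pair the samples. Correlations of same-number pairs ran from -0.201 to 0.0752 by title and from 0.0172 to 0.361 by description (3 of 6 over 0.1). The value of 0.361 was that of Control 2 with Reloading 1, the libraries with skin transcripts. By title 1 of 8 libraries was closest to its own number, and by description 7 of 9. The correlations of Unloading 1 and Unloading 2 mirror each other, so these counts are not independent and no pairing is read from them. With the replicate block by title number 5108, 1042 and 5705 genes were called in Reloading against Unloading, Unloading against Control and Reloading against Control, by description number 4902, 1479 and 6632. Neither replicate block changed the call of a member, and the second gave Slc39a1 -0.023 against Unloading. Only the compared groups left Mt2 untested in Unloading against Control. Counts of 3 to 20 read pairs limit Mt2 outside Reloading.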
